A study of Mus musculus with 10 samples.

Results

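The 10 genes described here carry lipid in the brain or take it up: the apolipoproteins Apoe, Clu and Apod, the ABC transporters Abca1, Abca2 and Abcg1, the lipase Lpl, and the receptors Lrp1, Vldlr and Sorl1. They were chosen by symbol for their roles in lipoprotein handling, with earlier results of these data known. Counts of members set beside shares of all genes are therefore descriptions and do not test the list. All 10 of 10 were present among the 12575 genes of the table. Cortical RNA of 5 BMAL1 aKO mice was compared with that of 5 Cre- littermates, to ask how loss of the clock factor BMAL1 from astrocytes alters cortical expression. BMAL1 aKO mice carried Aldh1l1-CreERT2 and Bmal1 fl/fl, and Cre- mice carried Bmal1 fl/fl alone. Both groups had the C57BL/6 strain, an age of 4 months in the labels (the study's text gives a slightly older age), and both had received tamoxifen, which switches CreERT2 on. Cre was driven by the promoter of Aldh1l1, a gene of astrocytes, so neurons, microglia, oligodendrocytes and vessel cells kept Bmal1, while the RNA came from whole cortical tissue.

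Lipid moves between brain cells on particles that resemble small high-density lipoproteins. Astrocytes make most of the apolipoprotein E, ABC transporters in the cell membrane load cholesterol and phospholipid onto it, lipoprotein lipase releases fatty acids from bound triglyceride, and receptors of the low-density lipoprotein receptor family take the particles into neurons and glia. In humans, variants at APOE, CLU, SORL1 and ABCA1 are known to alter the risk of Alzheimer's disease.

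Inferred from the steps of the values, the libraries held 23127338 to 47964460 reads in BMAL1 aKO and 21844770 to 48295715 in Cre-. Values are CPM, the read count of a gene divided by the total of its library and scaled to the same sum in all libraries. By the same inference, each of the 10 genes had at least 579 reads in every library. Arntl, the gene that encodes BMAL1, stood at 31.1 to 38.8 CPM in BMAL1 aKO and at 31.9 to 37.1 CPM in Cre-, a count over the whole gene in all cell types that does not test the labels. Astrocyte markers were present in every library, and all 16 of 16 were measured. Their summed level was 7877 to 9678 CPM in BMAL1 aKO and 6896 to 8182 CPM in Cre-, ranges that overlapped. Of the 16, 2 were called higher in BMAL1 aKO (limma, adjusted p at or below 0.1) and 0 lower, against 0.286% and 0.0477% of all genes. Aldh1l1, whose promoter drove Cre, stood at 32.8 to 44.9 CPM in BMAL1 aKO and 30.3 to 56.7 CPM in Cre-. Some libraries stood apart. Cre- replicate 3 had the lowest mean correlation with the other libraries (0.941, against 0.970 to 0.982 elsewhere), and its markers of striatal neurons, 10 of 10 measured, summed to 2182 CPM, against 519 to 1310 CPM in the other 9 libraries. Choroid plexus markers, of which 5 of 11 were measured, summed to 1104 CPM in BMAL1 aKO replicate 1, 964 CPM in Cre- replicate 5 and 299 CPM in Cre- replicate 4, against 19.5 to 45.1 CPM in the other 7. BMAL1 aKO replicate 1 also held 185 CPM of Alb, the albumin transcript of liver, against 1.04 to 16.7 CPM elsewhere, a gene looked at after its values were seen.

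No member passed the threshold in the limma fit over all 10 libraries, where a gene was called at a Benjamini-Hochberg adjusted p at or below 0.1. That count of 0 stands beside a background of 0.286% of all 12573 tested genes called higher and 0.0477% called lower in BMAL1 aKO. At an unadjusted p below 0.05 there were 4 of the 10 members (Apoe, Clu, Lpl and Sorl1), against 16.84% of all tested genes. The fit weighted libraries by quality, at 0.714 to 1.79 in BMAL1 aKO. In Cre- the weight was 7.19 for replicate 1 and 0.181 to 1.52 for the others. The Cre- side of each weighted fold change therefore rested mostly on Cre- replicate 1. Without quality weights limma again called 0 members, with 2 at an unadjusted p below 0.05, against 4.79% of all genes in that fit. With voomWithQualityWeights and TMM scaling (explained below for Apoe) on the whole reads recovered from the CPM, limma called 0 members. In that fit 3 had an unadjusted p below 0.05, against 10.4% of all genes. Leaving out BMAL1 aKO replicate 3 gave 3 called members, where 6.71% of all genes were called. Of the 10 fold changes, 5 were positive and 5 negative, and their median was -0.04 on the log2 scale, beside a median of -0.04 over all genes tested. The 2 medians differed in other settings, at -0.18 for the members and -0.05 for all genes without weights, and at -0.18 and -0.06 without Cre- replicate 5, a fit whose quality weights did not converge, as in the fit without Cre- replicate 1. The range of values overlapped between groups for 9 members. Lpl was the exception, 1 of 10 members with every BMAL1 aKO library above every Cre- library, against 0.62% of all genes, and 0 of 10 lay wholly below, against 0.382% of all genes. Per kilobase of exon, the mean level ran from 514 CPM per kb for Apoe to 3.13 CPM per kb for Lpl in BMAL1 aKO, and from 391 to 2.36 CPM per kb for the same genes in Cre-.

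**Figure D1:**
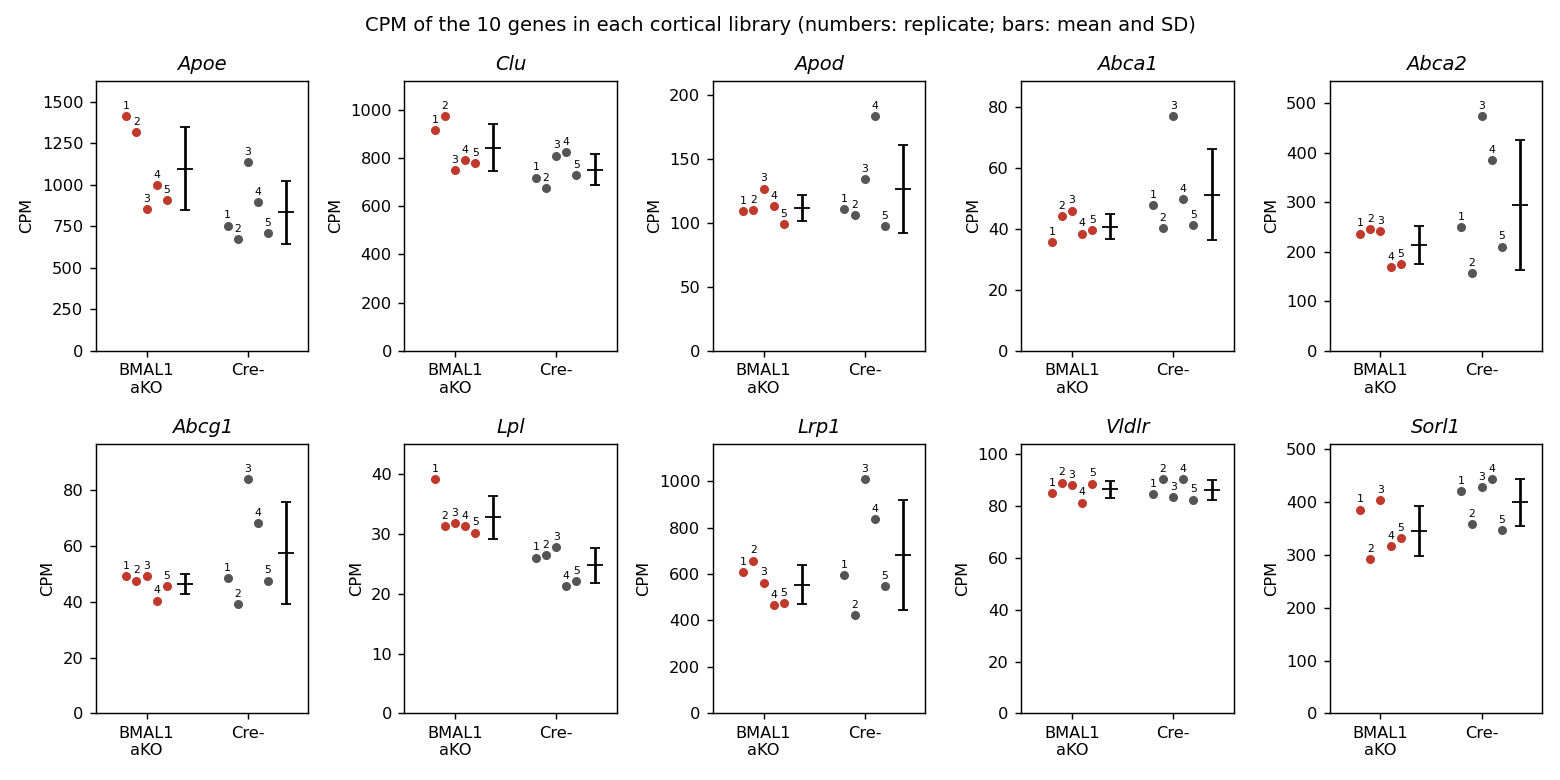
CPM (vertical axes, from 0) of the 10 genes in each of 5 BMAL1 aKO libraries (red) and 5 Cre- libraries (grey), with the replicate number above each point and the mean and SD as a bar. Lpl is at 30.2 CPM or more in BMAL1 aKO and at 27.8 CPM or less in Cre-, and Cre- replicates 3 and 4 stand above the rest of their group for Abca2, Abcg1 and Lrp1.

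Apoe encodes the main apolipoprotein of brain lipoproteins and lies on chromosome 7 (GRCm38, 19696109 to 19699188, minus strand). It stood at 1414, 1319.5, 855, 998 and 906 CPM in replicates 1 to 5 of BMAL1 aKO, and at 754, 673, 1139, 898 and 711 CPM in replicates 1 to 5 of Cre-. Replicates 1 and 2 of BMAL1 aKO were above every Cre- library, but Cre- replicate 3 exceeded the other 3 BMAL1 aKO libraries, so the groups overlapped. Means were 1098 ± 252.4 CPM in BMAL1 aKO and 835 ± 190 CPM in Cre- (SD, n = 5 each). The log2 fold change was 0.42 (standard error 0.12, 95% interval 0.17 to 0.67, adjusted p = 0.175, limma), and a two-sided exact permutation test on mean log2 values gave p = 0.0873, where 0.00794 is the smallest p that 5 against 5 libraries allow. Under TMM scaling, which corrects for a few genes taking a large share of the reads, the exact permutation p was 0.0397 and the adjusted p in limma 0.138. Without BMAL1 aKO replicate 1, the library with the highest choroid plexus sum and albumin value, the log2 fold change was 0.36 (adjusted p = 0.185, limma; exact permutation p = 0.183). Without BMAL1 aKO replicate 3 Apoe passed the threshold, at 0.48 (adjusted p = 0.066, limma), and without Cre- replicate 3 it did not, at 0.44 (adjusted p = 0.34, limma). In bulk tissue a change in the number of cells of a type and a change in RNA per cell cannot be told apart. The sums of the astrocyte markers overlapped between groups, with medians of 8307 CPM in BMAL1 aKO and 7460 CPM in Cre-. Of the 16, 4 had an unadjusted p below 0.05 (limma), all higher in BMAL1 aKO, against 16.84% of all genes in either direction. The median log2 fold change over the list was 0.13, and the part of these markers in the Apoe values was not tested.

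Clu, which encodes clusterin (apolipoprotein J), a secreted chaperone that also binds lipid, lies on chromosome 14 (65968483 to 65981547, plus strand). Its levels were 917, 974, 750.0, 793 and 778 CPM in replicates 1 to 5 of BMAL1 aKO and 719, 675, 810.3, 825 and 728 CPM in replicates 1 to 5 of Cre-. As for Apoe, the highest libraries were BMAL1 aKO replicates 1 and 2, and Cre- replicates 3 and 4 lay above the other 3 BMAL1 aKO libraries, so the groups overlapped. The difference was 0.17 on the log2 scale (standard error 0.07, 95% interval 0.01 to 0.32, adjusted p = 0.273, limma; exact permutation p = 0.127). Scaling mattered for the exact test. With TMM the range was 749 to 958 CPM in BMAL1 aKO and 708 to 774 CPM in Cre-, still overlapping, and the exact permutation p was 0.0159, while the adjusted p in limma remained at 0.213.

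Apod encodes apolipoprotein D, a lipocalin abundant in oligodendrocytes and perivascular cells (chromosome 16, 31296192 to 31314808, minus strand). It stood at 109, 109.9, 127, 113 and 98.6 CPM in replicates 1 to 5 of BMAL1 aKO, and at 111, 106, 134, 183 and 97.5 CPM in replicates 1 to 5 of Cre-. The groups overlapped over almost their whole range, apart from 183 CPM in Cre- replicate 4. That library also had the highest sum of the 13 oligodendrocyte markers, 6615 CPM, against 4253 to 6094 CPM in BMAL1 aKO and 3769.6 to 4939 CPM in the other Cre- libraries, and the part of that sum in the Apod value was not tested. Its log2 fold change was 0.01 (95% interval -0.22 to 0.24, adjusted p = 0.973, limma), and it was -0.15 without quality weights, so no direction is given.

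Among all genes tested, the profile over the 10 libraries nearest to that of Apoe belonged to S100a16, with a root mean square difference of 0.103 on the log2 scale after each gene's mean was taken off, followed by Vamp8 at 0.113 and Lgals3bp at 0.129. The spread of Apoe itself about its mean was 0.345 on the same scale. For Clu the nearest were Atp1b2, the glial subunit of the sodium pump (0.0475), Arhgap17 (0.0518) and Gnai2 (0.0714), against a spread of 0.152. The nearest to Apod were Zdhhc9 (0.0916), Tmbim1 (0.0996) and Myo1d (0.106), against a spread of 0.254. These are descriptions over the same 10 libraries, and Atp1b2 is also one of the astrocyte markers.

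Abca1 hands cholesterol and phospholipid to lipid-poor apolipoprotein E (chromosome 4, 53030787 to 53159895, minus strand). Replicates 1 to 5 of BMAL1 aKO held 35.7, 44.2, 46.0, 38.4 and 39.5 CPM, and replicates 1 to 5 of Cre- held 47.7, 40.3, 77.0, 49.7 and 41.3 CPM. Cre- replicate 3 stood far above all other libraries, and 3 Cre- libraries lay above every BMAL1 aKO library. Abca1 differed by -0.18 on the log2 scale (standard error 0.09, 95% interval -0.37 to 0.01, adjusted p = 0.324, limma; exact permutation p = 0.111), -0.29 without quality weights, -0.11 without Cre- replicate 1 and -0.14 without Cre- replicate 3 (adjusted p = 0.566, limma; exact permutation p = 0.222).

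Abcg1, which exports sterol to particles that already carry lipid (chromosome 17, 31057675 to 31117988, plus strand), stood at 49.2, 47.7, 49.4, 40.4 and 45.7 CPM in replicates 1 to 5 of BMAL1 aKO and at 48.4, 39.2, 84.1, 68.4 and 47.7 CPM in replicates 1 to 5 of Cre-. Its BMAL1 aKO values were close together, with a coefficient of variation of 7.93%, against 31.8% in Cre-, where replicates 3 and 4 were the 2 highest of all 10 libraries. Its fold change on the log2 scale was -0.09 (95% interval -0.30 to 0.12, adjusted p = 0.641, limma), and it was -0.25 without quality weights, -0.03 without BMAL1 aKO replicate 4 and -0.21 without Cre- replicate 5.

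Abca2, an intracellular transporter abundant in oligodendrocytes and neurons (chromosome 2, 25428703 to 25448540, plus strand), showed the widest Cre- spread of the 10 genes, with a coefficient of variation of 44.4%, against 17.8% in BMAL1 aKO. It stood at 237, 246, 242, 169.7 and 175 CPM in replicates 1 to 5 of BMAL1 aKO, and at 249, 157, 474 and 385 CPM in the first 4 replicates of Cre- and 210.4 CPM in the fifth. Cre- libraries were thus both the lowest and the 3 highest. The log2 fold change was -0.24 (95% interval -0.57 to 0.08, adjusted p = 0.414, limma; exact permutation p = 0.302), -0.37 without quality weights, -0.11 without BMAL1 aKO replicate 4 and -0.41 without Cre- replicate 5.

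**Figure D2:**
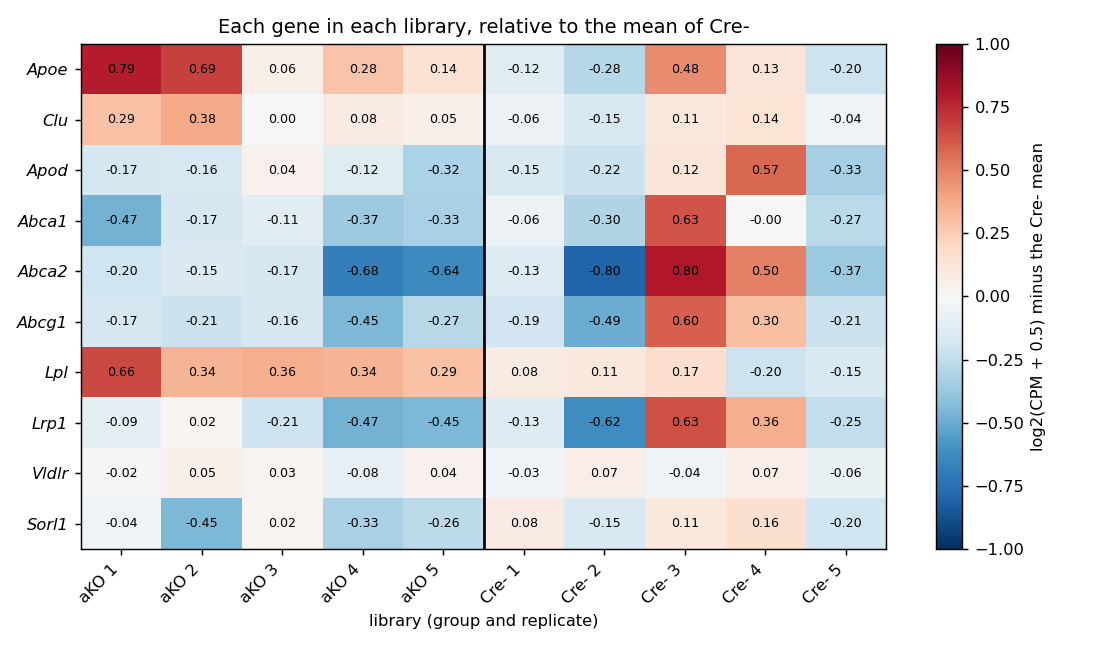
Difference of log2(CPM + 0.5) from the mean of the 5 Cre- libraries, for each gene (vertical) in each library (horizontal, BMAL1 aKO left of the line), with red above and blue below that mean. Cre- replicate 3 reaches 0.63 for Abca1, 0.80 for Abca2 and 0.63 for Lrp1, and the row of Lpl is red in all 5 BMAL1 aKO libraries, from 0.29 to 0.66.

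Lpl encodes lipoprotein lipase, which hydrolyses the triglyceride of lipoproteins, and lies on chromosome 8 (68880491 to 68907448, plus strand). Its levels were 39.2, 31.3, 31.8, 31.3 and 30.2 CPM in replicates 1 to 5 of BMAL1 aKO and 26.0, 26.5, 27.8, 21.3 and 22.1 CPM in replicates 1 to 5 of Cre-. All 5 BMAL1 aKO libraries lay above all 5 Cre- libraries, also under TMM scaling (30.5 to 41.0 CPM in BMAL1 aKO and 19.99 to 28.7 CPM in Cre-). Means were 32.7 ± 3.65 CPM in BMAL1 aKO and 24.7 ± 2.87 CPM in Cre- (SD, n = 5 each), a ratio of 1.32. The exact permutation p was 0.00794, the smallest these group sizes allow and unadjusted for the number of genes. In limma the log2 fold change was 0.34 (standard error 0.08, 95% interval 0.17 to 0.52, adjusted p = 0.14), which missed the threshold, and Lpl held place 85 among all genes ordered by p. The call depended on the setting. With TMM scaling the log2 fold change was 0.38 and passed (adjusted p = 0.097, limma). Over genes above 10 CPM in every library it was 0.33 and passed (adjusted p = 0.0975, limma). The log2 fold change did not pass without quality weights (0.40, adjusted p = 0.803, limma) or under quantile normalization (0.38, adjusted p = 0.107, limma). Nor did it with voomWithQualityWeights and TMM scaling (0.43, adjusted p = 0.171, limma). Without BMAL1 aKO replicate 1, the highest library, it was 0.30 (adjusted p = 0.168, limma; exact permutation p = 0.0159). It passed without BMAL1 aKO replicate 3, at 0.34 (adjusted p = 0.0779, limma), and was 0.48 without Cre- replicate 1 (adjusted p = 0.657, limma), where the quality weights did not converge. Sums of the 14 microglial markers, another cell type that expresses Lpl, were 348 to 450.4 CPM in BMAL1 aKO and 351 to 496 CPM in Cre- and overlapped. Of the 14, 0 were called, against 0.286% of all genes called higher and 0.0477% lower. An unadjusted p below 0.05 was reached by 4, all higher in BMAL1 aKO, against 16.84% of all genes in either direction. The median log2 fold change over the list was 0.14, and the part of these markers in the Lpl values was not tested.

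Lrp1 encodes the large endocytic receptor for apolipoprotein E (chromosome 10, 127538161 to 127621148, minus strand). It stood at 609, 658, 563, 468 and 475 CPM in replicates 1 to 5 of BMAL1 aKO, and at 595, 422, 1009, 836 and 548 CPM in replicates 1 to 5 of Cre-. The lowest and the 2 highest libraries were Cre-, as for Abcg1. On the log2 scale Lrp1 differed by -0.15 (95% interval -0.40 to 0.11, adjusted p = 0.525, limma; exact permutation p = 0.349), -0.24 without quality weights, -0.07 without BMAL1 aKO replicate 4 and -0.27 without Cre- replicate 5.

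Vldlr encodes a receptor shared by apolipoprotein E and reelin (chromosome 19, 27216484 to 27254231, plus strand). It was the steadiest of the 10 genes, at 81.3 to 89.1 CPM with a median of 88.0 CPM in BMAL1 aKO and at 82.5 to 90.5 CPM in Cre-, and its coefficient of variation was 3.78% in BMAL1 aKO and 4.41% in Cre-. The log2 fold change of 0.03 had a 95% interval from -0.09 to 0.14 (adjusted p = 0.814, limma).

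Sorl1 encodes a sorting receptor that binds apolipoprotein E and the amyloid precursor protein (chromosome 9, 41964720 to 42124297, minus strand). Its exons overlap those of the antisense gene Gm16214, and the library kit does not mark strand, so reads of the pair cannot be told apart. Replicates 1 to 5 of BMAL1 aKO stood at 386, 292, 404, 317 and 332 CPM, and replicates 1 to 5 of Cre- at 420.3, 358, 428, 444 and 347 CPM. Only BMAL1 aKO replicates 1 and 3 reached into the Cre- range, and the other 3 lay below it. The log2 fold change was -0.23 (standard error 0.09, 95% interval -0.42 to -0.03, adjusted p = 0.25, limma; exact permutation p = 0.111). Without BMAL1 aKO replicate 3 it fell by 0.32 on the log2 scale and passed the threshold (adjusted p = 0.0791, limma), and without Cre- replicate 1 it was -0.09 (adjusted p = 0.93, limma), while the interval under TMM scaling with all libraries was -0.37 to 0.01.

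**Figure D3:**
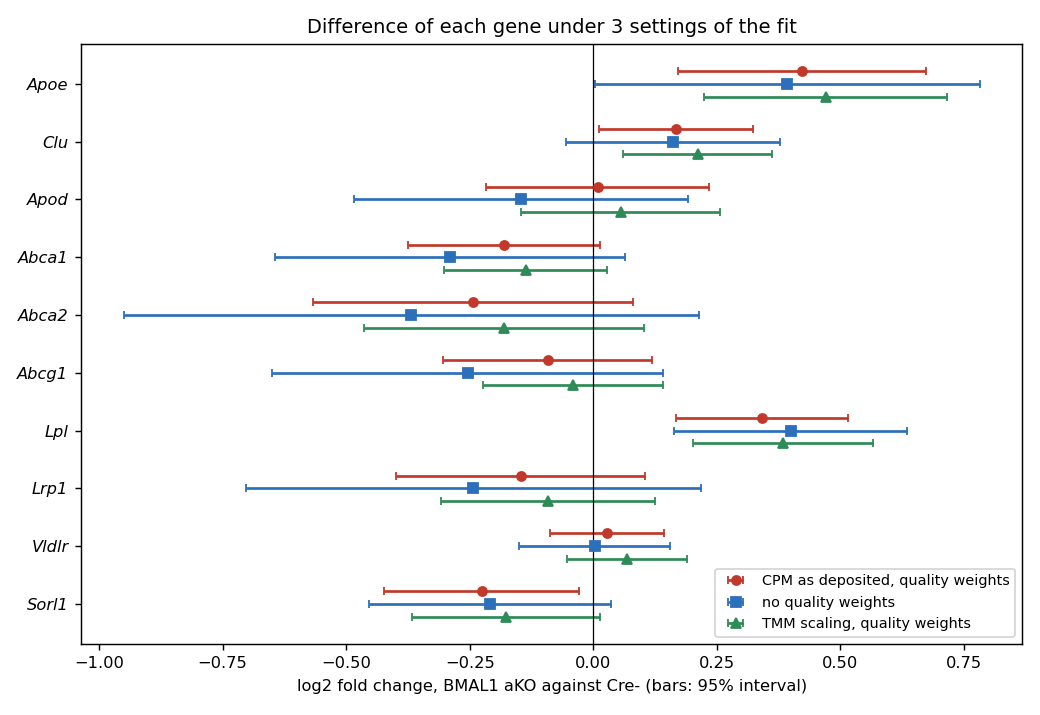
Log2 fold change of each gene, BMAL1 aKO against Cre- (horizontal), with its 95% interval, from limma on the deposited CPM with quality weights (red circles), without weights (blue squares) and with TMM scaling (green triangles). Lpl and Apoe lie above 0 under all 3 settings, at 0.34, 0.40 and 0.38 for Lpl and at 0.42, 0.39 and 0.47 for Apoe, while Apod changes side.

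A wide spread on the Cre- side was shared by Apod, Abca1, Abca2, Abcg1 and Lrp1. The coefficient of variation was higher in Cre- than in BMAL1 aKO for 7 of the 10 members, a count not made over all genes. Cre- and BMAL1 aKO were close for Lpl (11.6% and 11.1%) and Vldlr (4.41% and 3.78%). Apoe, Clu and Sorl1 went the other way. Cre- replicate 3 was the highest of all 10 libraries for 4 of the 10 members, as it was for 39.9% of all genes. A ratio of 2 genes within a library does not depend on how that library was scaled. Such ratios were looked at after the values were known and are given as a description, without a test. Of the 45 pairs among the 10 members, 6 (13.3%) had groups that did not overlap, against 1.11% of all pairs of tested genes. These pairs share members and are not independent: Lpl was in 4 of the 6, over Apod, Abca1, Vldlr and Sorl1, and Apoe in the other 2.

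The ratio of Apoe to Abca1 was 39.6, 29.9, 18.6, 26.0 and 22.9 in replicates 1 to 5 of BMAL1 aKO, and 15.8, 16.7, 14.8, 18.1 and 17.2 in replicates 1 to 5 of Cre-. Cre- replicate 3, where Apoe and Abca1 were both at their Cre- maximum, had the lowest ratio, and BMAL1 aKO replicate 1 the highest. Apoe over Abcg1 ran from 17.3 to 28.7 in BMAL1 aKO (median 24.7) and from 13.1 to 17.2 in Cre- (median 14.9). Lpl over Sorl1 was 0.102, 0.107, 0.0786, 0.0986 and 0.091 in replicates 1 to 5 of BMAL1 aKO, and 0.0619, 0.074, 0.0649, 0.048 and 0.0636 in replicates 1 to 5 of Cre-. Lpl over Apoe overlapped, at 0.0237 to 0.0371 in BMAL1 aKO and 0.0237 to 0.0394 in Cre-.

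**Figure D4:**
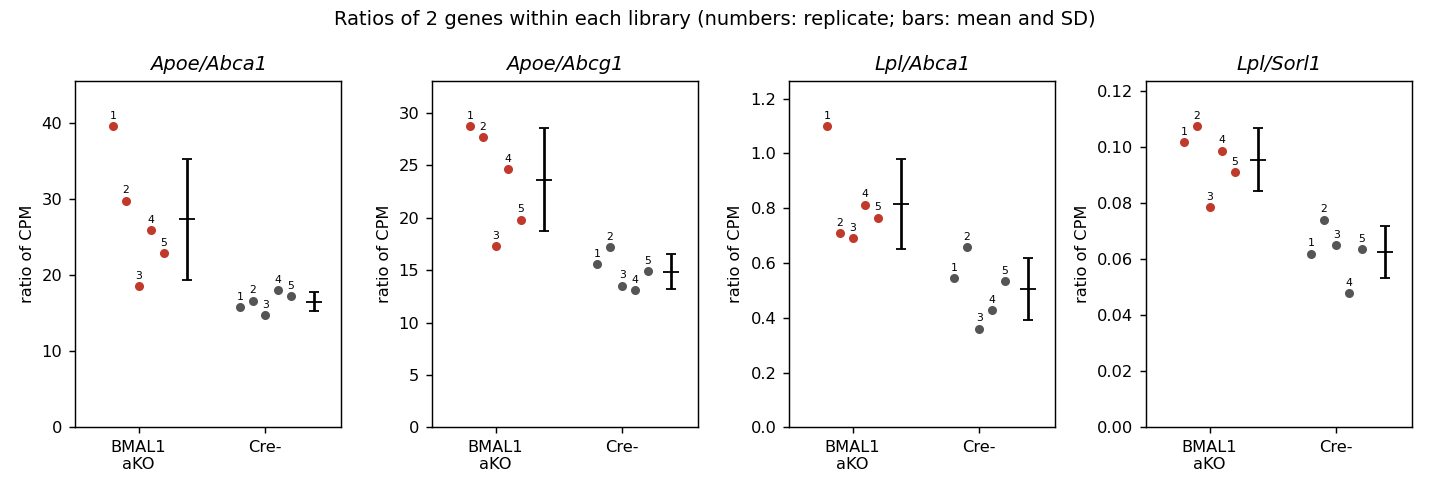
Ratio of the CPM of 2 genes within each library (vertical axes, from 0) for BMAL1 aKO (red) and Cre- (grey), with replicate numbers and the mean and SD as a bar. The 4 pairs were picked from the 6 whose groups did not overlap, each written so that the BMAL1 aKO median is the higher. By this choice every BMAL1 aKO library is above every Cre- library. The margin is smallest for Apoe over Abcg1 (17.3 in BMAL1 aKO replicate 3 and 17.2 in Cre- replicate 2).

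BMAL1 binds E-box motifs together with its partner CLOCK, so the 250 bases before each annotated start were searched for the E-box CACGTG and for 3 other motifs, on both strands. RefSeq (GRCm38.p6) gave 11 such windows for 7 of the members, and Clu, Abcg1 and Lpl were not matched. The E-box was found in 2 windows, those at the gene starts of Abca1 and Sorl1, against 6.02% of all 32851 promoters. The D-box TTATGNAA (3.07% of all promoters), the nuclear receptor half-site AGGTCA (14.0%) and the sterol element TCACNCCAC (1.05%) were found in none of the 11. A match describes letters and not binding. Only these exact letters were counted, so a window without a match can still hold a site that differs from them by a base. The windows of Abca1 and Sorl1 are printed because they hold the E-box, in capitals, at 147 and 19 bases before the start, and that of the Apoe gene start because Apoe lies on the other side of the ratio to Abca1 and held none of the 4 motifs. All 3 are on the minus strand and are written 5′ to 3′ in the sense of the gene.
Abca1, chr4:53159896-53160145: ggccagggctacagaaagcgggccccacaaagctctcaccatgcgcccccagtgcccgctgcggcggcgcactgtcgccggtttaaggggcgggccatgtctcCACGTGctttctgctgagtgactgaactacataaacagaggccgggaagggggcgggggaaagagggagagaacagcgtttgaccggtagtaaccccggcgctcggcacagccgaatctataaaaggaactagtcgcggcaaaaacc
Sorl1, chr9:42124298-42124547: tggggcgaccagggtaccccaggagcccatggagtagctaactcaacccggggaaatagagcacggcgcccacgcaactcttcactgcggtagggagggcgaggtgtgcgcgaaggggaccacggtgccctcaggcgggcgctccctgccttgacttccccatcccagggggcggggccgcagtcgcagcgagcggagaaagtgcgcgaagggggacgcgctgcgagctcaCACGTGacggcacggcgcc
Apoe, chr7:19699189-19699438: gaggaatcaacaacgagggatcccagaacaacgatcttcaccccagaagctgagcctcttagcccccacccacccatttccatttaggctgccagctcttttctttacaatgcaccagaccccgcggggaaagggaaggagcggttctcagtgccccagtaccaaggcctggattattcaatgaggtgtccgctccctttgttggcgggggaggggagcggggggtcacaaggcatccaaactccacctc
Both genes with the E-box had negative fold changes (-0.18 for Abca1 and -0.23 for Sorl1 on the log2 scale) that did not pass the test, as had Abca2 (-0.24) and Lrp1 (-0.15), whose windows held none of the motifs.

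Of 99 other genes of lipoprotein handling, in 5 lists, 76 were measured and tested. Limma called 0 of the 76, against 0.286% of all genes higher and 0.0477% lower, and 14 (18.4%) had an unadjusted p below 0.05, 5 higher and 9 lower in BMAL1 aKO, against 16.84% of all genes. No groups separated in any of the 76, against 0.62% of all genes wholly higher and 0.382% wholly lower in BMAL1 aKO. The median log2 fold change of the 76 was -0.06, beside -0.04 over all genes tested. Other apolipoproteins (5 tested) had a median log2 fold change of 0.13, other lipid transporters (18 tested) -0.07, other receptors and their partners (24 tested) -0.11, lipases and remodelling proteins (15 tested) -0.02 and sterol-sensing regulators (14 tested) -0.17. Receptors, the longest of the 5 lists, held the most genes at an unadjusted p below 0.05 (limma). These were 6 of 24, 1 higher and 5 lower, against 16.84% of all genes in either direction. Without BMAL1 aKO replicate 3, limma called 6 of the 76, 2 higher and 4 lower, in a fit that called 6.71% of all genes.

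The 2 genes of smallest p in each list are named whether or not they passed, and none did. Apoa1, the main protein of high-density lipoprotein in plasma, stood at 20.8 CPM in BMAL1 aKO replicate 1 and at 0.815 to 3.29 CPM in the other BMAL1 aKO libraries, against 0.378 to 1.91 CPM in Cre-. Apoc1, the neighbour of Apoe, was at 22.5 CPM in the same library, at 0.729 to 1.77 CPM in the other BMAL1 aKO libraries and at 0.549 to 1.42 CPM in Cre-. Both high values sat in the library with 1104 CPM of choroid plexus markers and 185 CPM of Alb. Cre- replicate 5, with 964 CPM of choroid plexus markers and 3.18 CPM of Alb, held 0.757 CPM of Apoa1 and 1.03 CPM of Apoc1. The part of these other transcripts in the high values was not tested. On the log2 scale the difference was 1.06 for Apoa1 (adjusted p = 0.283, limma) and 0.66 for Apoc1 (adjusted p = 0.489, limma).

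Among transporters, Abca5 averaged 61.3 ± 5.56 CPM in BMAL1 aKO and 66.2 ± 6.63 CPM in Cre- (SD, n = 5 each; log2 fold change -0.19, adjusted p = 0.224, limma). Abca3 stood at 38.7 to 55.4 CPM in BMAL1 aKO and 37.8 to 113 CPM in Cre-, where replicate 3 was again highest. Of the receptors, Lrp1b, a close relative of Lrp1, averaged 63.4 ± 4.10 CPM in BMAL1 aKO and 75.1 ± 8.98 CPM in Cre- (log2 fold change -0.27, adjusted p = 0.183, limma). Lrp4 had a positive fold change and averaged 64.2 ± 8.96 CPM in BMAL1 aKO and 57.5 ± 11.1 CPM in Cre- (log2 fold change of 0.30, adjusted p = 0.204, limma).

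Plin2, a coat protein of lipid droplets, averaged 4.23 ± 0.841 CPM in BMAL1 aKO and 3.71 ± 1.02 CPM in Cre- (log2 fold change 0.37, adjusted p = 0.236, limma). Pltp, the phospholipid transfer protein, stood at 17.3, 17.5, 10.2, 9.90 and 8.42 CPM in replicates 1 to 5 of BMAL1 aKO and at 15.2, 10.4, 44.5, 30.2 and 15.2 CPM in replicates 1 to 5 of Cre-, with the same 2 high Cre- libraries as Abcg1 and Lrp1. Insig2, which retains the sterol sensor complex in the endoplasmic reticulum, averaged 20.5 ± 2.15 CPM in BMAL1 aKO and 24.5 ± 3.14 CPM in Cre- (log2 fold change -0.28, adjusted p = 0.183, limma). Srebf2, the transcription factor of cholesterol synthesis, reached 314 CPM in Cre- replicate 3 and 238 CPM in Cre- replicate 4, against 95.5 to 152 CPM in BMAL1 aKO and 103.1 to 147 CPM in the other Cre- libraries.

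**Figure D5:**
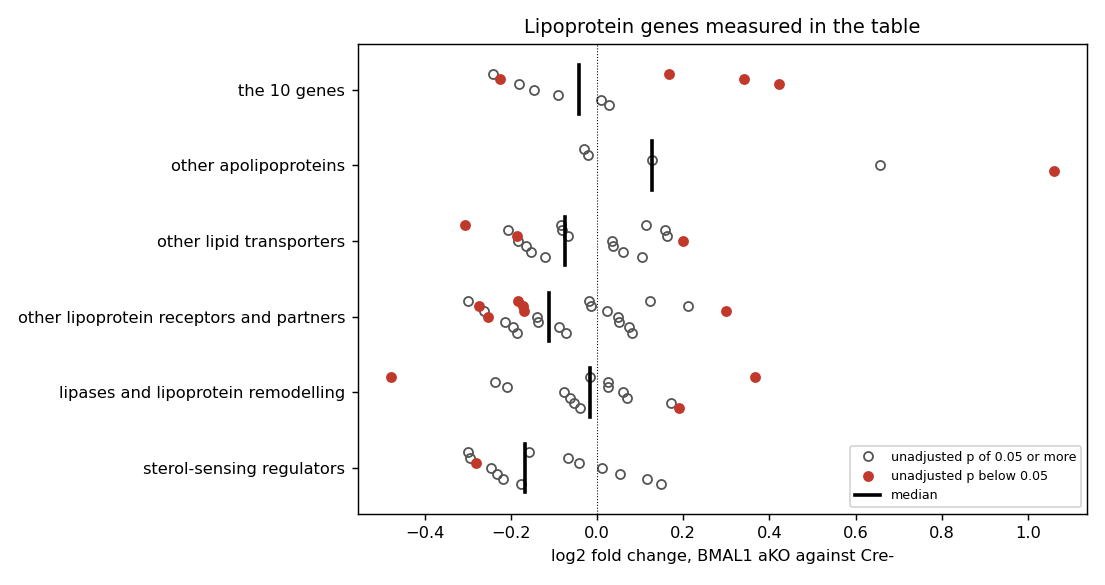
Log2 fold change, BMAL1 aKO against Cre- (horizontal), of the 10 genes and of the 76 measured genes of the 5 further lists (rows), with filled red points for an unadjusted p below 0.05 and a black bar at the median of each list. The bars run from -0.17 for sterol-sensing regulators to 0.13 for other apolipoproteins, where Apoa1 at 1.06 lies farthest out, and no point passed the adjusted threshold.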

How the data were processed

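RNA of cortical tissue was sequenced in 10 libraries, 5 BMAL1 aKO and 5 Cre-, which the study's text describes as separate mice. The authors deposited CPM, read counts scaled by the total of each library, per gene. Their reads were aligned to Ensembl release 76 GRCm38 with STAR 2.5.1a and counted with featureCounts 1.4.6-p5, per the labels and the study's methods. All 10 columns were used (0 left out). Reads and library totals were inferred from the smallest step of each column, by which 100% of values were whole within 0.01 read, and are not totals given by the study. The column sums show no TMM scaling. Pairs of replicates differed by far more than sampling noise (chi-square per degree of freedom 12.9 to 447).

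Values were taken as log2(CPM + 0.5), which understates changes of low genes. The filter asked for more than 1 CPM in 4 or more libraries and was passed by 12573 of 12575 genes, all 10 members among them. Fits were made in R 4.3.3 with limma 3.58.1, which weighted the libraries by quality, with trended moderated variances and Benjamini-Hochberg adjustment at 0.1. The fit was also run on simulated counts with known changes. Those libraries differed in depth but none was made to stand apart, so that run does not bear on the quality weights here. Single genes also had a two-sided exact permutation test of mean log2 values. The study names 4 BMAL1 aKO mice where the labels give 5, and all 5 labelled libraries were used. Same-numbered libraries did not deviate together (r from -0.625 to 0.364 over 5 pairs), so they were not paired.

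Named genes were all 10 members, the 2 genes of smallest p in each pathway list, and the 3 genes nearest in profile to each apolipoprotein. The members and lists were chosen with earlier results of these data known. Positions, exon lengths and overlaps came from GENCODE M21 (GRCm38), to which 12556 gene names matched. Alternatives were other pseudocounts, filters, scalings and thresholds, no weights, a replicate block and Xist as a covariate. Further ones were voomWithQualityWeights on recovered reads with TMM scaling, and each library left out in turn. Figures were drawn with Python 3.11.15 and matplotlib 3.10.9.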

Additional observations from a re-analysis of the deposited data

Results flagged for a closer look

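In 2 of the 20 groups of 5 values checked (10 genes in each of 2 groups), 1 library was separated from the others by most of its group's range, and chance alone sets apart about 1 in 20 groups. Abca1 stood at 77.0 CPM in Cre- replicate 3, against 40.3 to 49.7 CPM in the other Cre- libraries. Lpl stood at 39.2 CPM in BMAL1 aKO replicate 1, against 30.2 to 31.8 CPM in the other BMAL1 aKO libraries.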

How the results depend on the processing

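Over the 10 members, 210 fold changes were recomputed under alternative settings. Of these, 197 kept their direction and their side of the threshold, 5 newly passed it (Lpl under 3 settings, Apoe and Sorl1 under 1) and 8 changed sign, all of Apod. Its reversed values were -0.147 without weights, -0.0858 with the replicate block, and -0.158 to -0.000889 in fits that left out a library. The other fits that left out a library gave Apod 0.0319 to 0.0908. The number of members called by limma was 1 with genes above 10 CPM in every library (1.43% of those 8673 genes called). It was 1 with TMM scaling (0.541% of all genes called). On leaving out a library it was 0 to 3, where the 3 came without BMAL1 aKO replicate 3 (6.71% of all genes called there). It was 0 to 6 for the 76 pathway genes, again 6 without that library. Over all genes, 42 calls of 12573 genes became 124 of the 8673 genes above 10 CPM. The calls were 68 with TMM, 65 with quantile normalization, 22 with Xist as a covariate, 20 at a threshold of 0.05 and 4 without weights. They were 1 to 844 on leaving out a library (1 without Cre- replicate 1, 844 without BMAL1 aKO replicate 3). The cause of these shifts was not tested. The higher share was 36 of 42 calls, against 69 of 124 above 10 CPM and 339 of 844 without BMAL1 aKO replicate 3. With the replicate block 7 genes and 0 members were called, the median log2 fold change was -0.11 for the members and -0.06 for all genes, and 0 libraries correlated best with their own number. Tests with edgeR and DESeq2 were not run, because the deposited values are CPM and the reads behind them are inferred. In the main fit Cre- replicate 1 had the highest quality weight (7.19) and Cre- replicate 3 the lowest (0.181). The Cre- side of its fold changes thus rested mostly on Cre- replicate 1. The quality weights did not converge in 2 fits, those without Cre- replicates 1 and 5, so values from them are less certain. Which factor limits the number of calls was not tested.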
